A study of Mus musculus with 5 samples.

Results

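Vascular adhesion molecules and chemokines bring leukocytes into the vessel wall, and 10 of their genes were followed in mouse thoracic aorta: the adhesion molecules Vcam1, Icam1, Sele and Selp, the membrane-bound chemokine Cx3cl1, the CC chemokines Ccl2, Ccl7 and Ccl11, and the CXC chemokines Cxcl1 and Cxcl12. The members are every probe set that the platform annotation gives to 1 of these genes alone, and there were 21 of them among 45037. All 10 genes were measured, of 18193 genes with such a probe set: 5 members had 1 probe set, 4 had 3 and 1 had 4. The transgenic animals were male C57BL/6 mice with a P467L transgene, a dominant negative mutant of human PPARγ under the promoter of smooth muscle myosin heavy chain, and the controls were their non-transgenic male littermates. The labels used here give no age. There were 3 P467L arrays and 2 non-transgenic arrays, each hybridised with RNA pooled from 6 to 8 aortas, and the study describes the pools as independent biological replicates. The promoter confines the transgene to smooth muscle, while the RNA came from whole aorta with its endothelium, adventitia and blood cells. In such RNA, fewer cells of a type and less RNA per cell cannot be told apart.

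Leukocytes first roll on selectins, which endothelial cells display when activated, then are halted by chemokines presented on the vessel surface and held firmly by VCAM1 and ICAM1, the ligands of leukocyte integrins. Many of these genes are induced through the transcription factor NF-κB by inflammatory cytokines, and smooth muscle cells and fibroblasts can also express VCAM1, CCL2, CCL11, CX3CL1 and CXCL12. PPARγ, a nuclear receptor of lipid metabolism that also acts in the vessel wall, is known to restrain NF-κB target genes in several cell types.

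Vcam1 was higher in P467L aortas by each of its 3 probe sets, 1.30- to 1.59-fold, and Cx3cl1 (1.48-fold by its brightest probe set) and Ccl11 (1.31-fold) were also higher on all 3 P467L arrays than on both non-transgenic arrays. Icam1, Sele, Selp, Ccl2, Ccl7, Cxcl1 and Cxcl12 differed by at most 0.18 log2 units in either direction by any probe set. None of the 21 probe sets passed the test: limma, fitted over all 45037 probe sets with Benjamini-Hochberg adjustment, called 0 of them and 0.0% of all probe sets at an adjusted p of 0.05, and the smallest adjusted p of a member was 0.209. At an unadjusted p of 0.05, 5 of the 21 were higher, against 4.71% of all probe sets, and 0 were lower, against 2.74%. These 5 are the 3 of Vcam1, which share a target and are not independent, and 1 each of Cx3cl1 and Ccl11. After median centring of the arrays 5 of 21 lay past that threshold, all higher, against 5.12% of all probe sets; higher probe sets then made up 77.1% of all those past it, and 63.2% on the deposited scale.

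**Figure D1:**
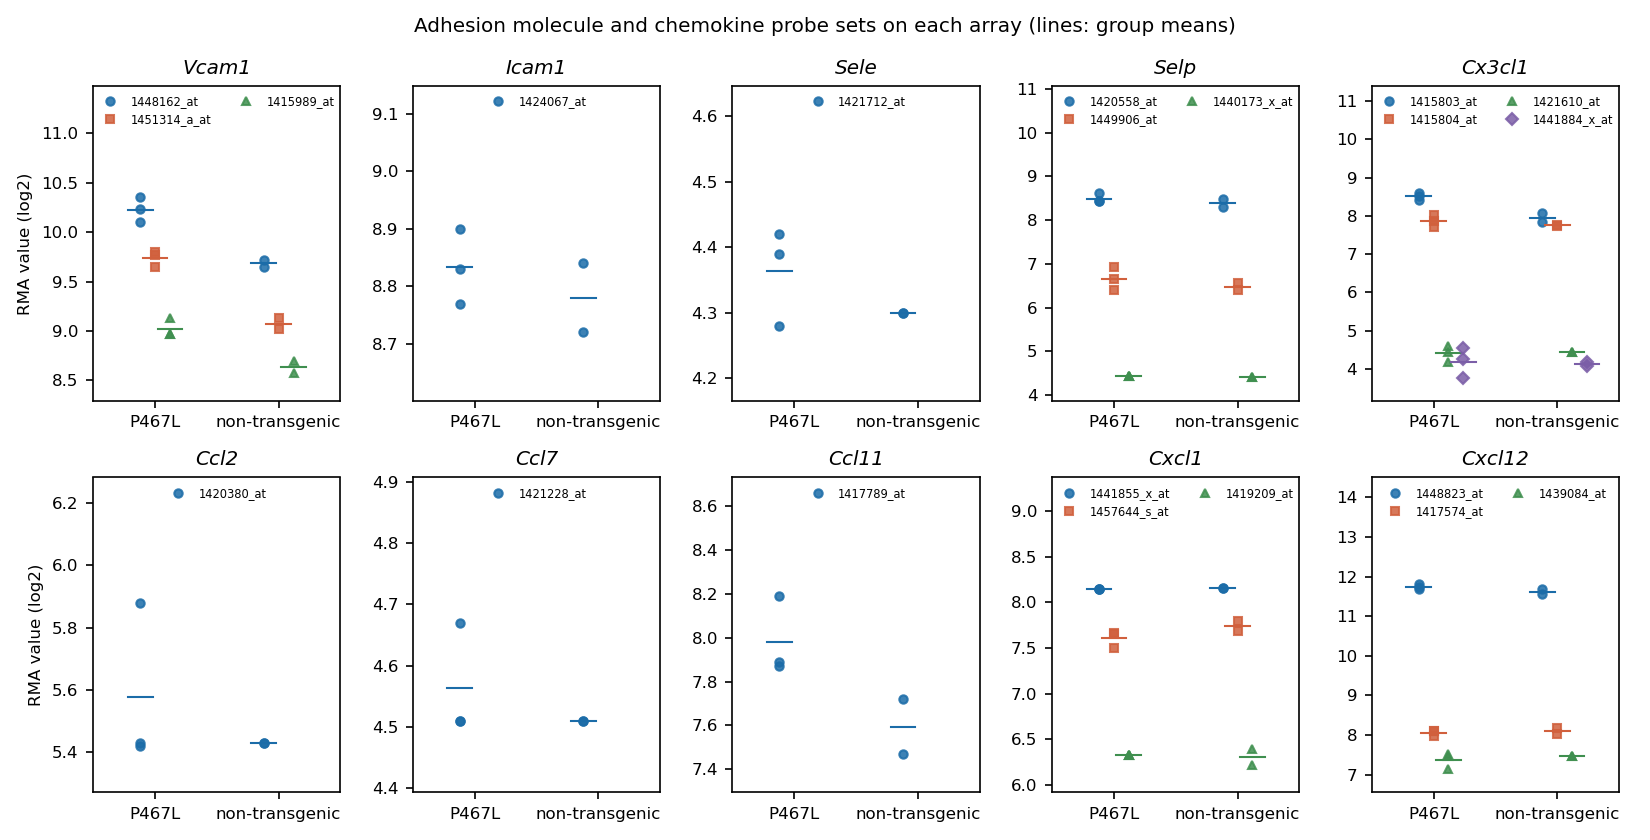
RMA values (log2, vertical axis) of the 21 probe sets on the 3 P467L and 2 non-transgenic arrays, with a panel for each gene, a symbol and colour for each probe set and a short line at each group mean. Equal values lie on top of each other, and the vertical axes differ between panels. In the Vcam1 panel all P467L points of a probe set lie above its non-transgenic points.

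Values are RMA expression values on the log2 scale, in which 1 unit is a doubling. A level is read within 1 probe set only, since probes differ in how brightly they bind. The array medians lay between 6.17 and 6.25. Of the 21 probe sets, 6 lay below the median on every array: those of Sele, Ccl2 and Ccl7, 1 of Selp and 2 of Cx3cl1. No detection call was used here, and whether these 6 read above background was not tested. P467L replicate 1 stood apart, with 842 probe sets at least 1 log2 unit below all other arrays and 0 as far above, and non-transgenic replicate 2 had 56 at least 1 unit above all others, among them stomach transcripts. The mouse Pparg probe set is not known to read the human transgene, so it gives no check of the labels.

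Vcam1 encodes vascular cell adhesion molecule 1, which binds the integrin α4β1 of monocytes and lymphocytes. Its brightest probe set, 1448162_at, read 10.10, 10.24 and 10.36 in P467L replicates 1 to 3, against 9.72 and 9.65 in non-transgenic replicates 1 and 2. The probe set 1451314_a_at read 9.77, 9.65 and 9.80 in P467L, against 9.02 and 9.13 in non-transgenic arrays. The third, 1415989_at, read 8.97, 8.97 and 9.13 in P467L, against 8.58 and 8.70 in non-transgenic arrays. In all 3 probe sets every P467L array lay above both non-transgenic arrays, and the groups did not overlap.

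The Vcam1 difference was 0.55 (SE 0.09, 95% interval 0.30 to 0.79, limma adjusted p = 0.36) for 1448162_at and 0.67 (SE 0.07, interval 0.48 to 0.85, limma adjusted p = 0.209) for 1451314_a_at. For 1415989_at it was 0.38 (SE 0.08, interval 0.18 to 0.59, limma adjusted p = 0.421). These intervals are of single probe sets and leave out 0, while the p adjusted over all probe sets does not pass. A difference as high as that of 1451314_a_at was reached by 0.404% of all probe sets, and one as high as that of 1415989_at by 1.67%. Without P467L replicate 1 and non-transgenic replicate 2 the differences were 0.58 for 1448162_at, 0.705 for 1451314_a_at and 0.47 for 1415989_at.

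Icam1 encodes intercellular adhesion molecule 1, a ligand of the β2 integrins of leukocytes. Its only probe set, 1424067_at, read 8.83, 8.77 and 8.90 in P467L, against 8.72 and 8.84 in non-transgenic arrays, and the groups overlapped. The difference was 0.05 (SE 0.06, limma adjusted p = 0.857), with a 95% interval from -0.12 to 0.23, or 0.92- to 1.17-fold.

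The selectins Sele and Selp were read by 1 and 3 probe sets. Sele, the E-selectin of cytokine-activated endothelium, read 4.39, 4.28 and 4.42 in P467L, against 4.30 in both non-transgenic arrays; P467L replicate 2 was the lowest of all 5. The difference was 0.06 (interval -0.09 to 0.21, limma adjusted p = 0.81), at a level below the array medians.

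Selp, the P-selectin stored in endothelial cells and platelets, overlapped between the groups in its brighter sets. The brightest, 1420558_at, read 8.62, 8.43 and 8.43 in P467L, against 8.31 and 8.49 in non-transgenic arrays. The second, 1449906_at, read 6.92, 6.65 and 6.41 in P467L, against 6.56 and 6.40 in non-transgenic arrays. In both, P467L replicate 1 was the highest array and the groups overlapped. The differences were 0.09 (interval -0.16 to 0.35) and 0.18 (interval -0.28 to 0.64), with limma adjusted p of 0.832 and 0.823. The dim 1440173_x_at read 4.44 in all 3 P467L arrays, against 4.41 and 4.42 in non-transgenic arrays. Its ranges did not overlap, with a difference of only 0.03 (SE 0.03, limma adjusted p = 0.861); the suffix x marks a set with probes that can also bind other transcripts.

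Cx3cl1 encodes fractalkine, a chemokine on a mucin stalk that acts as an adhesion molecule on the cell surface and, once cut off, as a soluble attractant. The brightest probe set, 1415803_at, read 8.61, 8.53 and 8.42 in P467L, against 7.83 and 8.08 in non-transgenic arrays. The second, 1415804_at, read 8.02, 7.88 and 7.72 in P467L, against 7.77 and 7.73 in non-transgenic arrays. The groups were apart in 1415803_at and overlapped in 1415804_at, where P467L replicate 3 was the lowest array.

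The Cx3cl1 difference was 0.57 (SE 0.10, interval 0.28 to 0.85, limma adjusted p = 0.398) for 1415803_at and 0.12 (SE 0.10, interval -0.15 to 0.40, limma adjusted p = 0.798) for 1415804_at. The annotation gives both the same accession, and the higher level in P467L thus rests on 1 of the 2 brighter probe sets. Both dim probe sets lay below the array medians. Of these, 1421610_at read 4.19, 4.61 and 4.44 in P467L, against 4.44 in both non-transgenic arrays, a difference of -0.03 (interval -0.40 to 0.34). In 1441884_x_at the values were 4.54, 4.25 and 3.77 in P467L, against 4.08 and 4.18 in non-transgenic arrays, a difference of 0.06 (interval -0.62 to 0.73). In both dim sets the P467L arrays lay on either side of the non-transgenic values.

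The CC chemokines Ccl2, Ccl7 and Ccl11 follow each other on mouse chromosome 11. Ccl2, the monocyte attractant MCP-1, read 5.88, 5.42 and 5.43 in P467L, against 5.43 in both non-transgenic arrays. Only P467L replicate 1 stood above the others, and the difference of 0.15 (SE 0.17, interval -0.31 to 0.60, limma adjusted p = 0.854) was -0.005 without that array. Ccl7, the monocyte attractant MCP-3, read 4.51, 4.67 and 4.51 in P467L, against 4.51 in both non-transgenic arrays. Its difference of 0.05 (interval -0.13 to 0.23, limma adjusted p = 0.859) came from P467L replicate 2 and was 0.00 without it.

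Ccl11 encodes eotaxin, which attracts eosinophils through the receptor CCR3. It read 7.87, 7.89 and 8.19 in P467L, against 7.47 and 7.72 in non-transgenic arrays. All 3 P467L arrays lay above both non-transgenic arrays. The difference was 0.39 (SE 0.14, interval 0.01 to 0.77, limma adjusted p = 0.661), and a difference as high was reached by 1.61% of all probe sets. It was 0.26 without non-transgenic replicate 1 and 0.51 without non-transgenic replicate 2. Ccl12, the next gene after Ccl11, is a mouse monocyte attractant. It read 6.83, 6.49 and 6.77 in P467L, against 6.45 and 6.27 in non-transgenic arrays, a difference of 0.34 (SE 0.13, limma adjusted p = 0.701).

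Cxcl1 encodes KC, a neutrophil attractant that acts through CXCR2. The brightest probe set, 1441855_x_at, read 8.14 in all 3 P467L arrays, against 8.16 in both non-transgenic arrays. The set 1457644_s_at read 7.50, 7.65 and 7.66 in P467L, against 7.69 and 7.79 in non-transgenic arrays. In both the P467L values lay below the non-transgenic ones, by 0.02 and 0.14 (differences of -0.02 and -0.14, limma adjusted p of 0.888 and 0.784), and the suffixes x and s mark sets whose probes can bind other transcripts. The third set, 1419209_at, whose name carries no such suffix, read 6.33 in all 3 P467L arrays, against 6.22 and 6.39 in non-transgenic arrays, a difference of 0.03 (interval -0.14 to 0.19, limma adjusted p = 0.931).

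Cxcl12 encodes SDF-1, a chemokine made by stromal and vascular cells that binds CXCR4 and the scavenging receptor ACKR3. The brightest probe set, 1448823_at, read 11.81, 11.68 and 11.75 in P467L, against 11.55 and 11.68 in non-transgenic arrays. In 1417574_at the values were 7.98, 8.09 and 8.11 in P467L, against 8.03 and 8.17 in non-transgenic arrays. In 1439084_at they were 7.48, 7.51 and 7.14 in P467L, against 7.48 in both non-transgenic arrays. The ranges touched or overlapped in all 3, and the differences were 0.13 (interval -0.05 to 0.31), -0.04 (interval -0.23 to 0.15) and -0.10 (interval -0.46 to 0.26), with limma adjusted p of 0.784, 0.897 and 0.864. The Cxcl12 probe sets thus differed in sign among themselves.

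**Figure D2:**
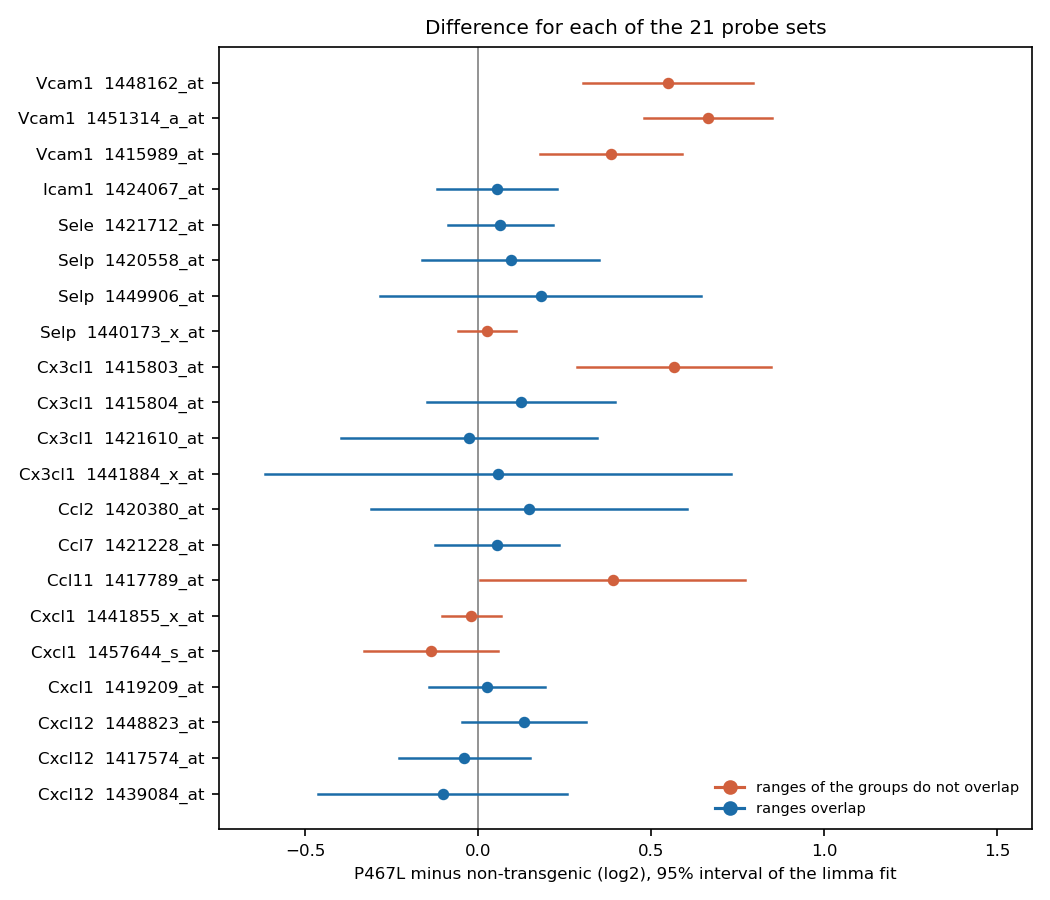
Difference between P467L and non-transgenic arrays (log2, horizontal axis) for each of the 21 probe sets, with the 95% interval of the limma fit. Orange marks the 8 probe sets in which the ranges of the groups do not overlap; the 3 of Vcam1, 1415803_at of Cx3cl1 and that of Ccl11 are the 5 whose interval leaves out 0.

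All P467L arrays lay above both non-transgenic arrays in 6 of the 21 probe sets, against 11.2% of all probe sets, and below both in 2, against 7.61%. The 6 were the 3 of Vcam1, 1 each of Cx3cl1 and Ccl11, and the dim Selp set. Reading each gene from its brightest probe set, 9 of the 10 genes had a higher mean in P467L aortas and 1, Cxcl1, a lower one, while 57.0% of all 18193 genes had a higher mean. The median difference was 0.11 over the 10 genes and 0.02 over all genes. Taken per array as the deviation from the non-transgenic mean, the median over the 10 genes read 0.21, 0.05 and 0.12 in P467L replicates 1 to 3, and -0.03 and 0.03 in the non-transgenic arrays. Rounded to 2 decimals, 7 of the 21 probe sets had the same value on 3 or more arrays, as did 26.9% of all probe sets.

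Promoter sequence from RefSeq (GRCm38.p6) was matched for 6 members: Icam1, Sele, Selp, Cx3cl1, Cxcl1 and Cxcl12. The NF-κB consensus was searched for on both strands in the 250 bases before each start. It was found in 1 of the 6 genes, Cxcl1, against 8.23% of 27025 genes, or 7.25% of 32851 promoters. No promoter sequence was available for Vcam1, Ccl2, Ccl7 and Ccl11, and these were not searched. The search thus leaves out Vcam1 and Ccl11, which read higher in P467L. The last 120 bases before the start are shown for Cx3cl1, whose brightest probe set was higher in P467L, and for Cxcl1, the member with a match; capitals mark the NF-κB consensus, which overlaps itself on both strands.
Cx3cl1, chr8:94772060-94772179, plus strand: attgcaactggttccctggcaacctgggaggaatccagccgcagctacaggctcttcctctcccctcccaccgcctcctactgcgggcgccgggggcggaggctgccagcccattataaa
Cxcl1, chr5:90891125-90891244, plus strand: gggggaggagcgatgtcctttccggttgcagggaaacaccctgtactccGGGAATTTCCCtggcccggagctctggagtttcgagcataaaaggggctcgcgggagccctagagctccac
The match in Cxcl1 begins 71 bases before the start, and the probe sets of this gene differed by -0.14 to 0.03 between P467L and non-transgenic arrays. A match of letters is a description and does not show binding.

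Receptors and counter-ligands of these molecules, namely integrins, selectin ligands and chemokine receptors, were measured for 19 of 20 genes. The list includes scavenging receptors such as ACKR3 and is not a list of leukocyte genes alone. Its median difference was -0.04, with 9 higher and 10 lower in mean and 0 past the limma threshold in either direction. The members with the smallest p were Glg1, an E-selectin ligand, at 0.18 (SE 0.05, limma adjusted p = 0.536) and Cd44, a hyaluronan receptor that also carries selectin ligands, at -0.16 (SE 0.04, limma adjusted p = 0.532). Receptors of the higher members are also given, chosen for that role after their values were seen. Itga4, the α4 chain of the VCAM1 receptor, differed by -0.04 (SE 0.04), Cx3cr1, the fractalkine receptor, by -0.09 (SE 0.06) and Ccr3, the eotaxin receptor, by 0.04 (SE 0.04). The values of Cx3cr1 and Ccr3 lay below the array medians.

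Other adhesion molecules of the vessel wall were measured for 16 of 17 genes, and their median difference was 0.13, with 12 higher and 4 lower in mean and 0 past the limma threshold. Podxl, a sialomucin of endothelium, read 10.14, 10.11 and 10.23 in P467L, against 9.58 and 9.28 in non-transgenic arrays, a difference of 0.73 (SE 0.11, limma adjusted p = 0.313). Ncam1, the neural cell adhesion molecule, differed by 0.28 (SE 0.06, limma adjusted p = 0.445). The P467L arrays lay above both non-transgenic arrays in both genes, which were named for their small p. They did so in 8 of the 16 genes. The share over all probe sets, not only the brightest of each gene, was 11.2%.

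Of 27 other chemokines 26 were measured, with a median difference of -0.01, 9 higher and 17 lower in mean and 0 past the limma threshold. Ccl12, given above, and Ppbp, a chemokine precursor of platelets, had the smallest p. Ppbp read 10.06, 9.92 and 9.83 in P467L, against 10.39 in both non-transgenic arrays, a difference of -0.45 (SE 0.08, limma adjusted p = 0.375).

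The NF-κB pathway and inflammatory cytokines were measured for 29 of 31 genes, and their median difference was 0.09, with 20 higher and 9 lower in mean. None passed the limma threshold. Il1r1, the receptor of interleukin-1, differed by 0.26 (SE 0.06, limma adjusted p = 0.491) and Traf2, an adaptor of TNF receptors, by 0.40 (SE 0.11, limma adjusted p = 0.53). The pathway's ligands Tnf and Il1b, named after their values were seen, differed by 0.06 (SE 0.05) and 0.02 (SE 0.04).

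At an unadjusted p of 0.05, 6.94% of all 18193 genes were higher and 2.51% lower in P467L. By the same measure the NF-κB list held 6 higher and 0 lower of 29, other adhesion molecules 5 and 0 of 16, receptors and counter-ligands 1 and 1 of 19, and other chemokines 0 higher and 1 lower of 26. These counts are descriptions, and no list was tested against other genes. With 1 array left out at a time, the median difference ran from 0.06 to 0.095 for the NF-κB list, 0.11 to 0.17 for other adhesion molecules, -0.09 to 0.025 for receptors and -0.07 to 0.005 for other chemokines.

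**Figure D3:**
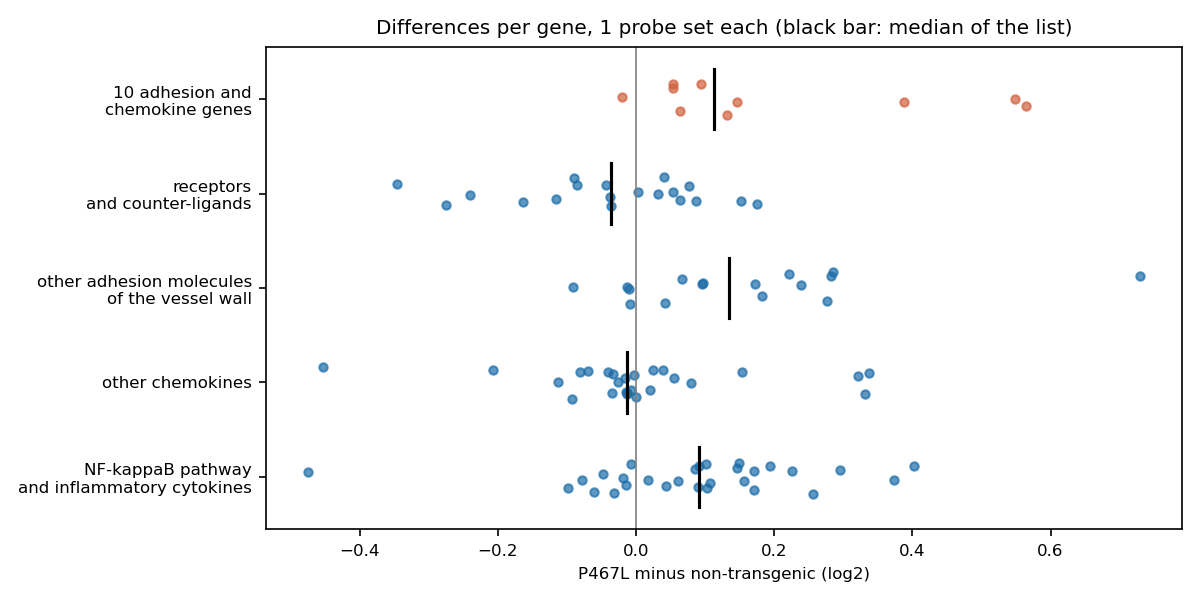
Difference between P467L and non-transgenic arrays (log2, horizontal axis) for the 10 adhesion and chemokine genes (orange) and the genes of 4 related lists (blue), each gene read from its brightest probe set and spread vertically for legibility. Black bars are the list medians, which run from -0.04 for receptors and counter-ligands to 0.13 for other adhesion molecules; all lists hold genes on both sides of 0.

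Markers of the cell types in these samples were read on the same arrays. The 14 macrophage markers were all measured and all had a higher mean in P467L, with a median difference of 0.19 and 0 past the limma threshold. C1qb, a complement component of macrophages, differed by 0.36 (SE 0.12) and Fcgr1, a macrophage Fc receptor, by 0.24 (SE 0.11). Their mean level was 9.42, 9.10 and 9.35 in P467L replicates 1 to 3, against 9.10 and 9.13 in non-transgenic arrays. The list's median deviation from the non-transgenic mean was 0.37, 0.05 and 0.22 in P467L replicates 1 to 3, against -0.005 and 0.005 in non-transgenic arrays. By the mean level P467L replicate 2 lay at the lower non-transgenic array, and by the median deviation slightly above both.

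Endothelial markers had a mean level from 8.99 to 9.09 in P467L and 9.01 in both non-transgenic arrays, over 14 of 14 genes, with 8 higher and 6 lower in mean and a median difference of 0.03. Within the list the nitric oxide synthase Nos3 differed by 0.47 (SE 0.05) and the sialomucin Emcn by -1.05 (SE 0.12), both with a limma adjusted p of 0.234. Fibroblast and adventitial markers had a mean level from 11.89 to 11.98 in P467L, against 11.86 and 11.92 in non-transgenic arrays (median difference 0.06, 8 of 11 higher in mean). Among them Cd248, a fibroblast and pericyte protein, differed by 0.64 (SE 0.13) and the microfibril protein Mfap5 by -0.66 (SE 0.06). Smooth muscle markers had a mean level from 12.88 to 12.92 in P467L, against 12.85 and 12.83 in non-transgenic arrays (median difference 0.02, 6 of 10 higher in mean), with the intermediate filament desmin (Des) at 0.81 (SE 0.13) and smoothelin (Smtn) at 0.16 (SE 0.04).

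Lymphocyte markers were lower in mean in all 11 measured of 14, with a median difference of -0.17, Cd22 at -0.28 (SE 0.08) and Cd4 at -0.17 (SE 0.06). Their mean level was 6.48, 6.22 and 6.20 in P467L, against 6.50 and 6.48 in non-transgenic arrays. Platelet markers, which bear on Selp, were lower in mean in all 8 measured of 9, with a median difference of -0.13 and the platelet glycoprotein Gp5 at -0.25 (SE 0.06), beside Ppbp. Their mean level was 8.36, 8.18 and 8.05 in P467L, against 8.31 and 8.39 in non-transgenic arrays, and the median difference was -0.02 without P467L replicate 3 and -0.245 without P467L replicate 1. Neutrophil markers had a median difference of -0.04 over 8 of 9 genes, 2 higher and 6 lower in mean, with Mpo at -0.25 (SE 0.11) and Ngp at -0.15 (SE 0.09). The 2 higher were S100a8 at 0.24 (SE 0.47) and S100a9 at 0.33 (SE 0.52), named after their values were seen. When dim probe sets were left out the median was 0.24, which is the S100a8 difference itself. None of the markers in these lists passed the limma threshold. At an unadjusted p of 0.05, 6.94% of all 18193 genes were higher and 2.51% lower. The markers past it were 3 higher and 1 lower of 14 endothelial and 3 and 1 of 11 fibroblast markers. They were 2 and 0 of 10 smooth muscle, 1 and 0 of 14 macrophage and 0 and 1 of 11 lymphocyte markers. For platelet and neutrophil markers they were 0 and 2 of 8 and 0 and 0 of 8. These counts were not tested against other genes.

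Stomach transcripts were lower in mean in all 10 of 10 in P467L, with a mean level of 8.25, 8.16 and 7.75 in P467L, against 7.71 and 10.92 in non-transgenic arrays, so that non-transgenic replicate 2 alone stood high; Chia1 differed by -3.10 (SE 1.37) and Pgc by -2.17 (SE 1.00). Adipocyte markers had a mean level from 8.21 to 8.81 in P467L, against 8.87 and 8.05 in non-transgenic arrays, with 5 of 6 measured genes of 8 higher in mean and a median difference of 0.03; Fabp4 differed by -0.59 (SE 0.32) and Pck1 by 0.41 (SE 0.44). With 1 array left out at a time, the median difference ran from 0.11 to 0.27 for macrophage, -0.01 to 0.07 for endothelial, 0.003 to 0.11 for fibroblast, 0.007 to 0.025 for smooth muscle and -0.23 to -0.13 for lymphocyte markers. It ran from -0.08 to 0.002 for neutrophil, -0.29 to 0.45 for adipocyte and -2.74 to 0.41 for stomach genes. Both ends for adipocyte and stomach genes came from leaving out a non-transgenic array. The part of these lists in the differences of the adhesion molecules and chemokines was not tested.

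**Figure D4:**
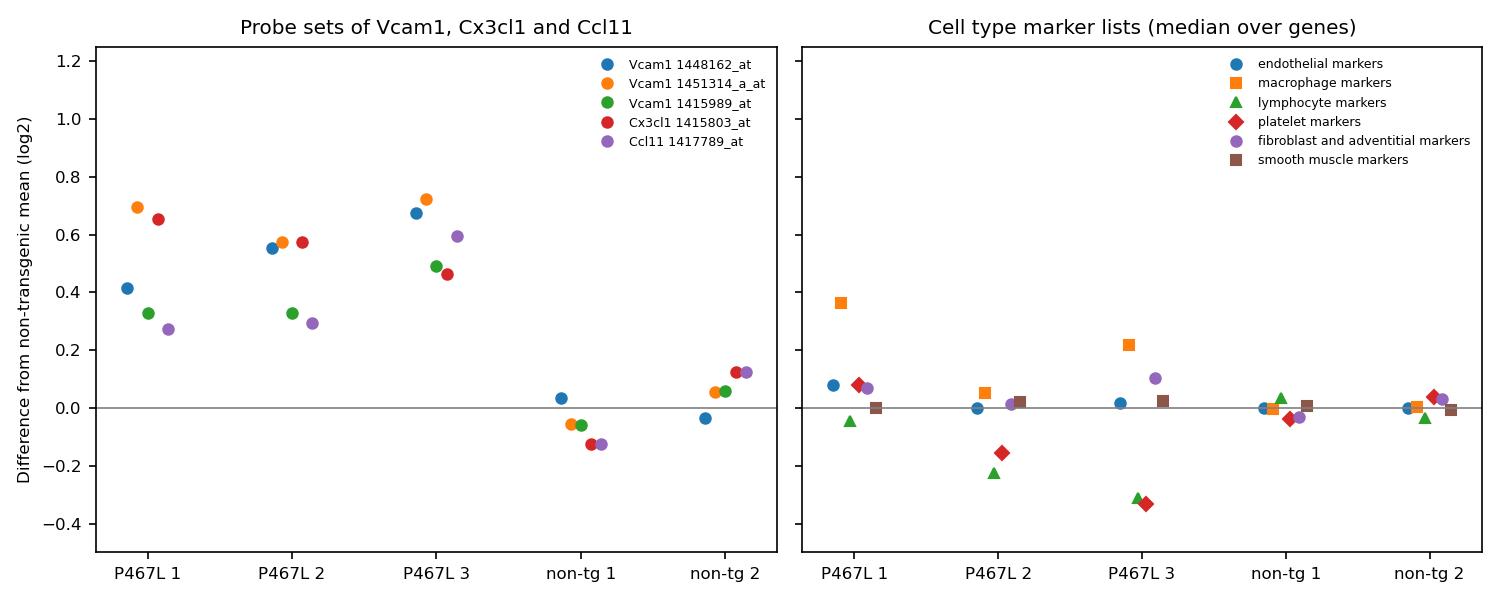
Difference from the mean of the non-transgenic arrays (log2, vertical axis) on each of the 5 arrays. The left panel shows the probe sets of Vcam1, Cx3cl1 (1415803_at) and Ccl11, all above both non-transgenic arrays on the 3 P467L arrays; the right panel shows the medians of 6 marker lists, of which the macrophage list reads 0.37, 0.05 and 0.22 in P467L replicates 1 to 3.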

How the data were processed

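RNA of 3 P467L and 2 non-transgenic aorta pools was measured on Affymetrix Mouse Genome 430 2.0 arrays. Per the submitters' processing notes, the authors made the deposited log2 values with RMA and Affymetrix Power Tools, with no version named there. RMA equalises the distributions of the arrays, so a shift shared by most transcripts is removed. Probe sets were named from the platform annotation, and symbols were updated by NCBI gene number from the GRCm38.p6 gene table: 34945 had 1 gene, 932 several and 9160 none there, and 64 control probe sets were left out.

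Differences are P467L minus non-transgenic, fitted in limma 3.58.1 (R 4.3.3) by lmFit and eBayes without covariates, two-sided with 4.23 degrees of freedom per test. The p-values were adjusted by Benjamini-Hochberg over 45037 probe sets at a threshold of 0.05, and intervals are at 95%. The code was tested on simulated data. Genes of the 13 lists were read from their brightest single-gene probe set, and named where they passed or had 1 of the 2 smallest p in their list; other names are marked. The members and lists were chosen with earlier results of these data known, and no list test was run. The number of arrays limits the precision, and the p-values measure the spread between these pools. The labels name no batch. The fit was repeated with a replicate block, other scalings of the arrays, a filter on dim probe sets, a variance trend, array weights, fewer arrays, another threshold and 1 probe set per gene. Same-numbered arrays correlated at 0.113 and 0.00814 in their deviations from the group means. With 2 non-transgenic arrays these deviations mirror each other, so the correlations cannot decide whether the numbers pair the arrays. The numbers were not taken to pair them because the study describes the pools as independent.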

Additional observations from a re-analysis of the deposited data

How the results depend on the processing

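The 0 calls among the 21 probe sets held in 13 of the alternatives and became 4 (Vcam1 by 3 probe sets, Cx3cl1 by 1415803_at) with array weights and 2 (Vcam1) with a gene-by-gene estimate of the weights, which was added after the data were seen because the first estimate stopped before it converged. These weights give P467L replicate 2 a weight of 34.1 and 4.61, so the fits rest mostly on 1 P467L array. Over all probe sets the 0 calls became 2245 and 283 with the weights, 15 with median centring, 10 with 1 probe set per gene and 17 at an adjusted p of 0.10. Leaving out each array in turn gave 0 calls over all probe sets and 0 among the members, with a median difference of the 10 genes from 0.07 to 0.17. No other count changed. Among the members the count at an adjusted p of 0.10 was fixed by the main fit, where their smallest adjusted p was 0.209. With fewer arrays the degrees of freedom fall, so 0 calls in those fits say little about stability.

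Of 267 member differences recomputed under 13 settings, 22 turned sign. The variance trend and the filter on dim probe sets leave each difference as in the main fit. Their differences are among the 267 but could not turn. The sign never turned in 11 probe sets, among them those of Vcam1, Ccl11 and 1415803_at of Cx3cl1. The Vcam1 sets ran from 0.32 to 0.72, 1415803_at from 0.44 to 0.69 and Ccl11 from 0.26 to 0.57. The rest of the 11 were Ccl7, 1415804_at of Cx3cl1, the brightest set of Cxcl12, and the brightest and the dim set of Selp. With them was 1457644_s_at of Cxcl1, which stayed lower in P467L (-0.19 to -0.035). An unturned sign was thus not particular to the probe sets that read clearly higher. With array weights the sign turned for Ccl2 (-0.008), Icam1 (-0.0088), Sele (-0.0185), 1421610_at of Cx3cl1 (0.167) and 1439084_at of Cxcl12 (0.0272); with the gene-by-gene weights for Sele (-0.0035) and 1421610_at (0.137); with median centring for 1421610_at (0.0133) and 1441855_x_at of Cxcl1 (0.02); with the replicate block for 1439084_at (0.015). Without both P467L replicate 1 and non-transgenic replicate 2 it turned for Ccl2 (-0.005), 1421610_at (0.085), 1441884_x_at of Cx3cl1 (-0.07), 1417574_at of Cxcl12 (0.07) and 1449906_at of Selp (-0.03). With 1 array left out the ranges that cross 0 were -0.005 to 0.225 for Ccl2, -0.125 to 0.085 for 1421610_at, -0.12 to 0.265 for 1441884_x_at, -0.06 to 0.11 for 1419209_at of Cxcl1, -0.11 to 0.03 for 1417574_at, -0.17 to 0.015 for 1439084_at and -0.0067 to 0.1133 for Icam1. Those of Sele (0.035 to 0.105), 1441855_x_at (-0.02 throughout) and 1449906_at (0.05 to 0.305) did not. The cause was not tested. The replicate block gave 0 calls among the members. Only P467L has a replicate 3, so the block gives the same differences as leaving that array out. It is not a separate check of them, and its turned sign for 1439084_at is counted under both settings among the 22. Dim probe sets limit what can be said of Sele, Ccl2 and Ccl7.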
